A study of Mus musculus with 10 samples.

Results

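The genes described here are the mouse Bcl2 family, the caspases with Apaf1, the inhibitor of apoptosis (IAP) proteins, and the p53 relatives and p53-associated genes. They were taken as every gene whose single symbol in the platform annotation was Bcl2 or began with it, Bak1, Bok, Bid, Bik, Bad, Bbc3, Bmf, Hrk, Mcl1, Pmaip1, Casp or Birc with a number, Apaf1, Xiap, Trp63, Trp73, Mdm2, Mdm4 or began with Trp53. That rule used no measured value, but it was set with earlier results of these data known. It found 47 of the 18193 genes with a single symbol. A gene with several probe sets is given by its brightest, judged by the mean of all 10 arrays.

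The study asked how adult mouse neural stem cells (NSC) change when Oct4, also called Pou5f1, is introduced by a retroviral vector, and it measured RNA on 10 Affymetrix arrays of 1 sample each. All 3 groups trace to adult brain NSC of OG2 mice, which carry an Oct4-eGFP transgene as a green reporter of Oct4, with the marker allele Rosa26 neo/lacZ, crossed with ICR females. The deposited values are on the log2 scale and were made with robust multi-array averaging (RMA), so a difference of 1 is a 2-fold difference. The sample titles give 3 groups, of 3, 3 and 4 arrays.

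The first group is labelled iPS-derived NSC (3 arrays): cells differentiated by a modified published protocol from induced pluripotent stem (iPS) cells that had been made with Oct4 alone. The second is labelled iPS (3 arrays): brain NSC infected with a pMX retroviral vector carrying Oct4 complementary DNA, from which Oct4-GFP-positive colonies were picked by hand and expanded on irradiated mouse embryonic fibroblasts with leukaemia inhibitory factor. The third is brain NSC (4 arrays), taken from adult brain with no added factor. The labels give no clone names, animal numbers or pooling, and nothing in them says that the arrays within a group hold separate cultures or mice. P values therefore measure only the spread between these samples, which may be technical.

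Apoptosis through mitochondria is set by the balance of Bcl2 family proteins: pro-survival members hold the pore-forming members in check, and BH3-only proteins release them. The released cytochrome c assembles with Apaf1 and switches on initiator and then executioner caspases, which IAP proteins restrain. The transcription factor p53 raises several BH3-only genes after DNA damage and is itself kept low by Mdm2 and Mdm4. In mouse pluripotent cells this machinery is known to stand close to its threshold, and p53 is known as a barrier to reprogramming.

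Marker genes went against 2 of the 3 group labels. The summed level of 8 pluripotency markers, on the log2 scale, was 15.62 to 15.72 on the arrays labelled iPS-derived NSC, against 8.43 to 8.61 on those labelled iPS and 8.45 to 8.56 on the brain NSC arrays. The summed level of 7 neural stem cell markers was 9.28 to 9.47 on the arrays labelled iPS-derived NSC, 15.28 to 15.36 on those labelled iPS and 15.38 to 15.43 on the brain NSC arrays. Pou5f1 itself averaged 13.29 in the labelled iPS-derived NSC group, 4.66 in the labelled iPS group and 4.55 in brain NSC. All 8 pluripotency markers were called higher on the arrays labelled iPS-derived NSC than in the labelled iPS group, and 6 of the 7 neural markers were called lower. The exception was Hes5, a Notch target of neural stem cells, which averaged 5.35 in the labelled iPS-derived NSC group, 5.86 in the labelled iPS group and 9.44 in brain NSC. It was the 1 of the 7 called between the labelled iPS group and brain NSC, at -3.58 ± 0.19. Every direction below is that of the labels as deposited. Another 3 marker sums also stood highest on the arrays labelled iPS-derived NSC. Those of 8 feeder fibroblast genes were 9.15 to 10.56 there, against 7.92 to 8.09 in the labelled iPS group and 7.89 to 7.98 in brain NSC, and 4 of the 8 were called higher than in the labelled iPS group and 5 higher than in brain NSC. Those of 6 neuronal genes were 10.32 to 10.49, against 8.09 to 8.17 in the labelled iPS group and 8.03 to 8.19 in brain NSC, with Stmn2 the one called gene. Those of 6 microglial genes were 8.24 to 8.49, against 7.75 to 7.79 in the labelled iPS group and 7.73 to 7.83 in brain NSC, with Cd68 the one called gene. Their part in the results below was not tested, and in bulk RNA a smaller share of cells of a type and less RNA per cell cannot be told apart.

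Differences were tested with limma over all 18193 genes, with p values adjusted by the Benjamini-Hochberg method, and a gene was called at an adjusted p under 0.05 and a difference of at least 2-fold. Errors of differences are limma's standard errors (SE), with n = 3, 3 and 4 arrays throughout. Of the 47 genes, 16 were called between the groups labelled iPS-derived NSC and iPS, which is 34.0% of them against 25.3% of all genes. Of the 16, 10 were higher and 6 lower on the arrays labelled iPS-derived NSC, beside 10.8% and 14.4% of all genes. Against brain NSC, 16 were again called in the labelled iPS-derived NSC group, beside 25.4% of all genes. Of these, 9 were higher and 7 lower, beside 11.3% and 14% of all genes. In a fit without genes whose 10-array mean lay under the median of all gene values (6.72), 30 of the 47 remained. There 11 of the 30 were called in the first comparison, beside 3297 of 9192 genes, and 12 in the second, beside 3299. Between the arrays labelled iPS and brain NSC, 2 of the 47 were called, beside 1.84% of all genes. Of these, 1 was higher, beside 0.951% of all genes, and 1 was lower, beside 0.89%.

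The median difference of the 47 genes was 0.15 for labelled iPS-derived NSC minus labelled iPS, 0.23 for labelled iPS-derived NSC minus brain NSC and 0.01 for labelled iPS minus brain NSC. Over all genes these medians were 0.12, 0.13 and 0.01. Without regard to sign, the median difference of the 47 was 0.58, 0.54 and 0.16 in the same order, beside 0.42, 0.41 and 0.15 over all genes. Any 2 of the 3 comparisons share a group of arrays, so their values are given side by side and not as independent evidence of each other. A pair of differences is that from the labelled iPS group and then that from brain NSC, each with the labelled iPS-derived NSC group on top. In every group 2 of the 47 genes, Casp4 and Trp53tg5, lay below the lower quartile of an array's probe sets (4.22 to 4.41 over the arrays), and 8, these included, lay below the array median (5.65 to 5.72). No detection calls were used, so whether such dim genes were above background was not tested.

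**Figure D1:**
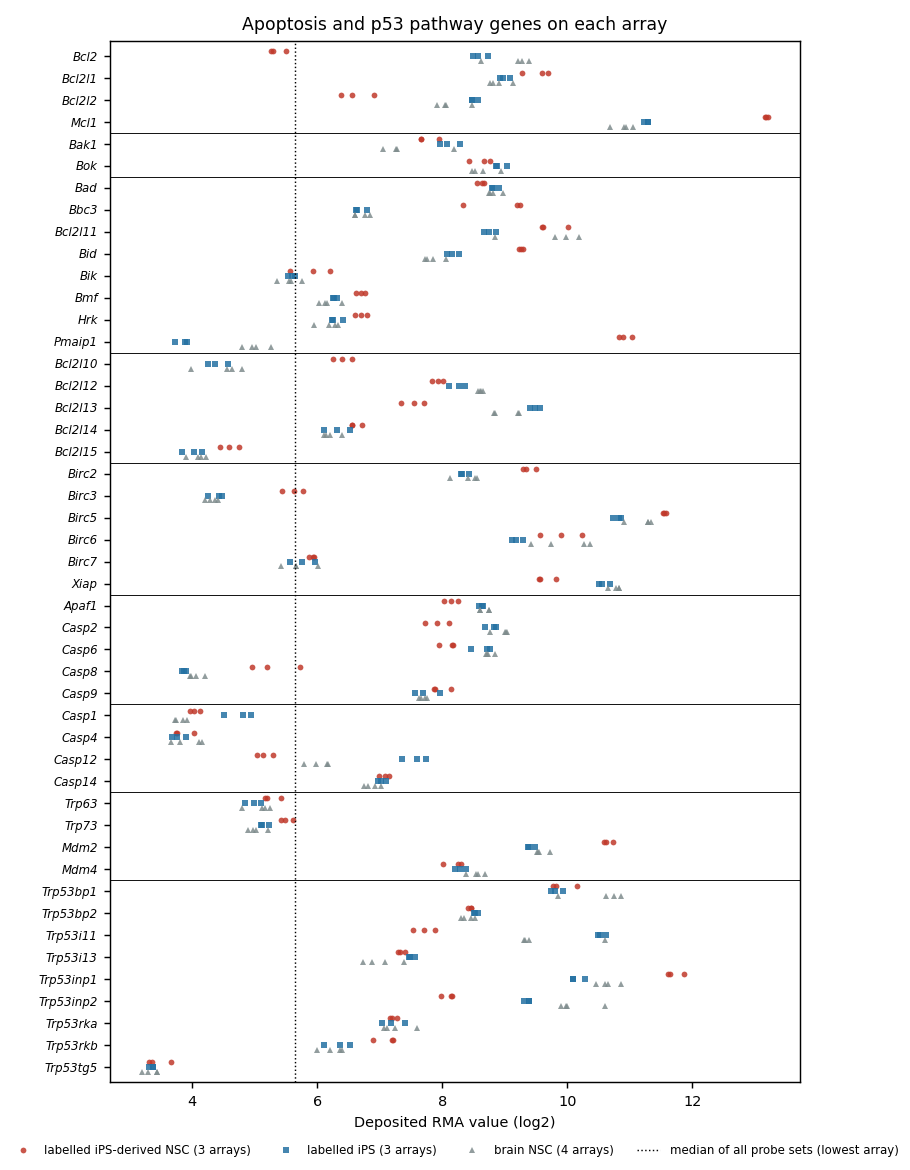
Deposited log2 RMA values (x axis) of the 47 genes (rows, grouped by role between the horizontal lines), 1 point per array: circles, labelled iPS-derived NSC; squares, labelled iPS; triangles, brain NSC. The dotted line is the lowest array median of all probe sets, 5.65, and Pmaip1 shows the widest gap, at 10.82 to 11.04 on the arrays labelled iPS-derived NSC and under 5.3 on all others.

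**Figure D2:**
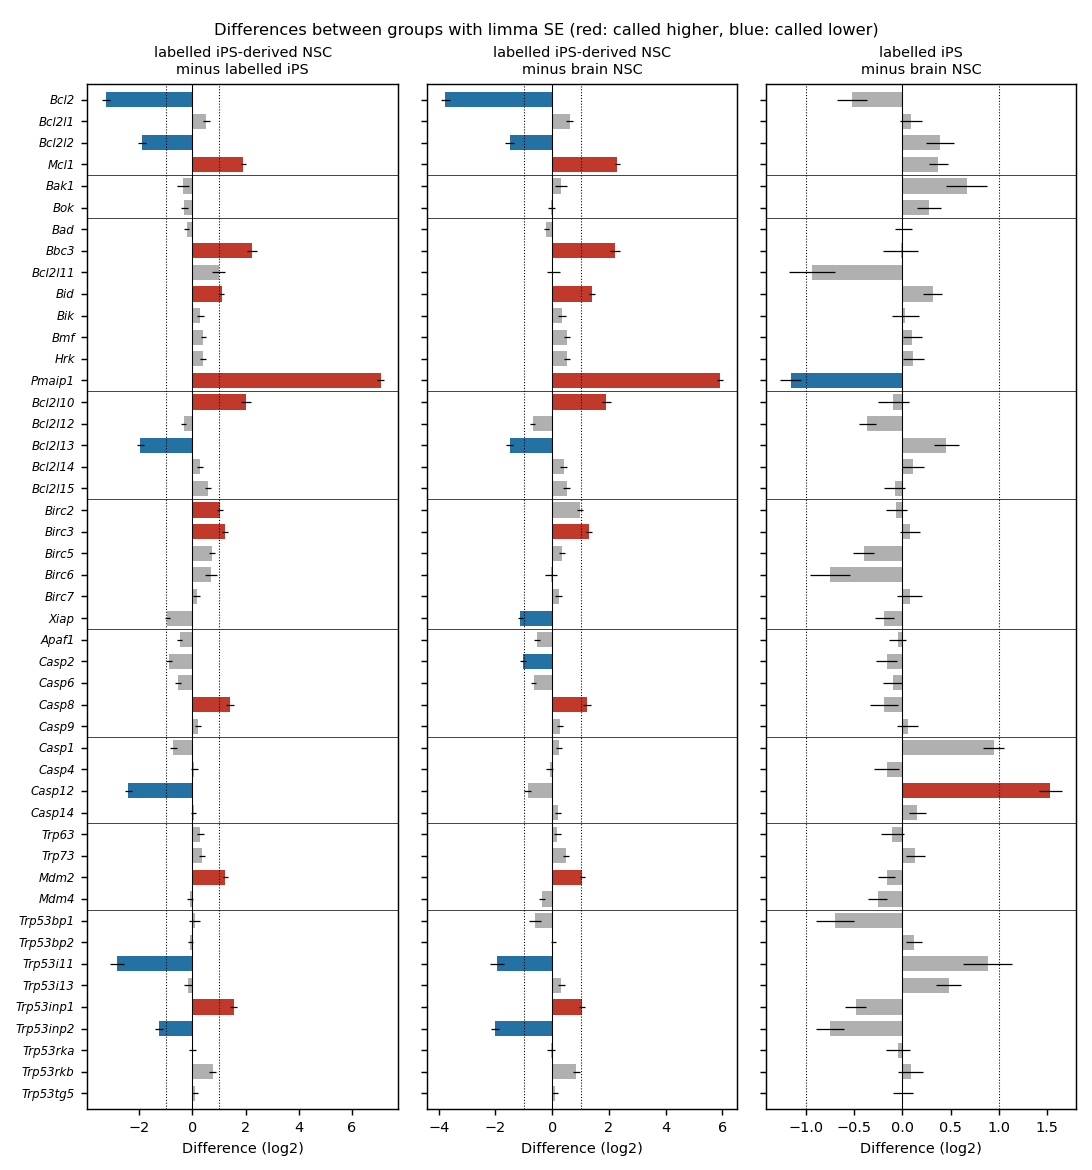
Differences between group means (x axis, log2) of the 47 genes (rows) in the 3 comparisons (panels), with limma's SE as black lines. Red bars are called higher and blue bars called lower in the group named first. Grey bars were not called. Dotted lines mark a 2-fold difference, and the first 2 panels hold 16 called genes each against 2 in the third.

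The 4 pro-survival genes did not move together: Mcl1 rose, Bcl2 and Bcl2l2 fell, and Bcl2l1 was not called. The share called was 75% in each comparison of the labelled iPS-derived NSC group, beside 25.3% and 25.4% of all genes. Mcl1 encodes a short-lived pro-survival protein. It read 13.21, 13.18 and 13.17 on the arrays labelled iPS-derived NSC, against 11.29, 11.30 and 11.22 on those labelled iPS and 10.69, 10.94, 10.90 and 11.05 in brain NSC. It stood highest on the arrays labelled iPS-derived NSC, and no array of that group overlapped the others. The difference was 1.92 ± 0.10 (SE; 3.78-fold, adjusted p = 1.07e-09) from the labelled iPS group and 2.29 ± 0.09 (4.90-fold, adjusted p = 6.97e-11) from brain NSC. Its 6 probe sets differed by 0.91 to 2.30 between the labelled iPS-derived NSC and labelled iPS groups, all in the same direction. From brain NSC they differed by 0.71 to 2.69, of which 4, at 0.71, 0.80, 0.88 and 0.97, were not called. The mean of all 6 gave 1.40 from the labelled iPS group and 1.39 from brain NSC, and both were called.

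Bcl2, the founding pro-survival gene, read 5.29, 5.27 and 5.50 on the arrays labelled iPS-derived NSC, against 8.73, 8.50 and 8.57 on those labelled iPS and 9.39, 9.28, 9.21 and 8.61 in brain NSC. All 3 labelled iPS-derived NSC arrays lay below their median over probe sets, and the brain NSC array at 8.61 is replicate 4, which lay among the labelled iPS values. The difference was -3.25 ± 0.17 (9.50-fold lower, adjusted p = 9.33e-10) from the labelled iPS group and -3.77 ± 0.16 (13.6-fold lower, adjusted p = 8.24e-11) from brain NSC. The 5 probe sets of Bcl2 ranged from -3.25 to -0.71 between the labelled iPS-derived NSC and labelled iPS groups, so the size of the fall depended on the probe set and its direction did not. With the mean of all 5 the differences were -1.62 and -1.67, both called.

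Bcl2l2, which encodes the pro-survival protein Bcl-w, read 6.39, 6.90 and 6.55 on the arrays labelled iPS-derived NSC, against 8.47, 8.57 and 8.48 on those labelled iPS and 7.91, 8.04, 8.06 and 8.47 in brain NSC. The labelled iPS-derived NSC arrays lay below all others, while brain NSC replicate 4 lay level with the lowest labelled iPS array. The differences were -1.90 ± 0.15 and -1.51 ± 0.14. This call rested on the brightest probe set: the 3 others, all dimmer, gave 0.06, -0.72 and 0.14 against the labelled iPS group. With the mean of all probe sets the differences were -0.60 from the labelled iPS group and -0.49 from brain NSC, and neither was called. Bcl2l2 lies on chromosome 14, where 274 genes with a mean of at least 7 had a median difference of -0.74 and 73.4% were below 0 in the labelled iPS-derived NSC minus labelled iPS comparison. The corresponding median against brain NSC was -0.70, and the part of the chromosome in the result was not tested.

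Bcl2l1, the gene of the pro-survival protein Bcl-xL, read 9.59, 9.28 and 9.69 on the arrays labelled iPS-derived NSC, against 8.93, 8.97 and 9.08 on those labelled iPS and 8.81, 8.77, 8.91 and 9.14 in brain NSC. The 3 labelled iPS-derived NSC arrays were the highest, by 0.52 ± 0.13 (adjusted p = 0.00261) and 0.61 ± 0.12 (adjusted p = 0.000447). Both differences passed on p and stayed below the 2-fold size, so the gene was not called.

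The 3 pro-survival genes with a call have these promoter sequences, shown because 1 rose and 2 fell. Each runs over the 250 bases before the RefSeq start (build GRCm38.p6), read 5′ to 3′ on the gene's strand: Mcl1 at chr3:95658471-95658720 on the plus strand, Bcl2 at chr1:106714291-106714540 on the minus strand and Bcl2l2 at chr14:54883175-54883424 on the plus strand. Capitals mark the GC box GGGCGG, the site that Sp1-type factors are known to bind, or its reverse complement.
Mcl1: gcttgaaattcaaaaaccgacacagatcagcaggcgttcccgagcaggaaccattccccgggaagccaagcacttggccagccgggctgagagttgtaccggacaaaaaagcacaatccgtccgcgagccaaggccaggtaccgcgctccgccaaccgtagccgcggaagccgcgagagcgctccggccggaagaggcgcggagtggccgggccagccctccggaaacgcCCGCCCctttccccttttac
Bcl2: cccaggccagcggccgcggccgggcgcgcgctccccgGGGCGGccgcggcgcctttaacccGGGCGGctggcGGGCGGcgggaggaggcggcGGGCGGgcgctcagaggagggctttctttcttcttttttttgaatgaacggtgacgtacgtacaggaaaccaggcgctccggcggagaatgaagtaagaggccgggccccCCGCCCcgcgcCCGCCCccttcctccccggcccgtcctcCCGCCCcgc
Bcl2l2: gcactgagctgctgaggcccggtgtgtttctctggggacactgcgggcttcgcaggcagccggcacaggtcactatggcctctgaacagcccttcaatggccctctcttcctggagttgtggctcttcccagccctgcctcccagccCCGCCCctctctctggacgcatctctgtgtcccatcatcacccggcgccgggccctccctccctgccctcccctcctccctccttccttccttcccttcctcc
The Bcl2 window held 7 GC boxes, and the Mcl1 and Bcl2l2 windows held 1 each. The share of G and C was 74.8% in Bcl2, 64.4% in Mcl1 and 66.0% in Bcl2l2. A GC box on either strand was present in 30 of 57 windows of the 47 genes (42 genes have a window), which is 52.6%, and in 32.7% of the 32851 mouse windows searched. None of the 3 held the CCAAT box, the TATAAA motif or the E-box CACGTG on either strand. A match is a description of letters and not a site.

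Neither of the 2 pore-forming genes was called. Bak1, whose product forms pores in the mitochondrial outer membrane, read 7.66, 7.66 and 7.94 on the arrays labelled iPS-derived NSC, against 7.96, 8.29 and 8.08 on those labelled iPS and 7.26, 7.28, 7.05 and 8.19 in brain NSC. Brain NSC replicates 1 to 3 were the lowest and replicate 4 lay among the labelled iPS arrays. The differences were -0.36 ± 0.23 and 0.31 ± 0.21, with adjusted p = 0.192 and 0.22, and the labelled iPS minus brain NSC difference was 0.67 ± 0.21 (adjusted p = 0.0421, below 2-fold). Bok, a relative of Bak1, differed by -0.31 and -0.03 and by 0.27 between the labelled iPS group and brain NSC.

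Of the 8 BH3-only genes, 3 rose in both comparisons of the labelled iPS-derived NSC group, and none fell. Of all genes, 10.8% and 11.3% were called higher and 14.4% and 14% lower in these comparisons. The median difference over the 8 was 0.70 from the labelled iPS group and 0.51 from brain NSC, beside 0.12 and 0.13 over all genes. The 3 were Pmaip1, Bbc3 and Bid, the genes of Noxa, Puma and the caspase-cleaved protein Bid. Pmaip1 and Bbc3 are known p53 targets.

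Pmaip1, whose product Noxa binds and antagonises Mcl1, had the widest range of the 47. It read 11.04, 10.89 and 10.82 on the arrays labelled iPS-derived NSC, against 3.92, 3.88 and 3.73 on those labelled iPS and 5.25, 4.96, 4.80 and 5.02 in brain NSC. All 3 labelled iPS arrays lay under their lower quartile, the brain NSC arrays lay under their median, and the 3 groups did not overlap. The difference of the log2 values was 7.07 ± 0.12 (adjusted p = 1.43e-14) from the labelled iPS group and 5.91 ± 0.11 (adjusted p = 3.13e-14) from brain NSC. Labelled iPS arrays were lower than brain NSC, with a difference of -1.16 ± 0.11 (adjusted p = 2.07e-05). No fold is given, since background at the dim end was not measured. That last call is between values near the dim end, and Pmaip1 has a mean over the 10 arrays under the median of all gene values (6.72).

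Bbc3 read 9.20, 8.34 and 9.24 on the arrays labelled iPS-derived NSC, against 6.79, 6.61 and 6.63 on those labelled iPS and 6.76, 6.60, 6.60 and 6.84 in brain NSC. Replicate 2 of the labelled iPS-derived NSC group was the lowest of its group, and still lay above every array of both other groups. The differences were 2.25 ± 0.19 (4.75-fold, adjusted p = 1.83e-07) and 2.23 ± 0.18 (4.68-fold, adjusted p = 8.76e-08). Bid, which carries the signal of death receptors to mitochondria once a caspase has cut it, read 9.23, 9.25 and 9.29 on the arrays labelled iPS-derived NSC, against 8.07, 8.26 and 8.16 on those labelled iPS and 7.72, 8.06, 7.76 and 7.85 in brain NSC. In the labelled iPS-derived NSC group the values were highest and close together, by 1.09 ± 0.10 (2.13-fold) and 1.41 ± 0.10 (2.65-fold). The first of these became 0.98 with the mean of the 3 probe sets and was then not called.

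Bcl2l11, the gene of the BH3-only protein Bim, depended on the probe set and on 1 array. Its brightest probe set read 9.62, 10.01 and 9.60 on the arrays labelled iPS-derived NSC, against 8.86, 8.67 and 8.74 on those labelled iPS and 10.18, 9.97, 9.80 and 8.84 in brain NSC. Brain NSC replicate 4 lay among the labelled iPS arrays, and the other 3 brain NSC arrays lay among or above the labelled iPS-derived NSC ones. The difference of labelled iPS-derived NSC from labelled iPS was 0.98 ± 0.26 (adjusted p = 0.00473), just under 2-fold, and that from brain NSC was 0.04 ± 0.24 (adjusted p = 0.887). Over its 5 probe sets the first difference ran from 0.16 to 2.40 and the second from 0.04 to 2.35. The dimmer probe set at the top of both ranges was called in both comparisons. With the brightest probe set or the mean of all, the first difference was called under 6 of 14 alternatives, the mean (1.08) among them. Labelled iPS minus brain NSC was -0.94 ± 0.24, and -1.23 without brain NSC replicate 4, when it was called.

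The other 4 BH3-only genes were not called on their brightest probe sets. Bad, a sensor of survival signalling, differed by -0.21 and -0.20. Bik, Bmf and Hrk, each a BH3-only antagonist of pro-survival proteins, differed by 0.30 to 0.41 from the labelled iPS group and by 0.33 to 0.52 from brain NSC. Another probe set of Bmf was called in both, at 1.80 from the labelled iPS group, while its brightest one gave 0.41 there. The names of both these probe sets mark possible cross-hybridisation. The remaining Bmf probe set, without that mark, gave 0.36 from the labelled iPS group and 0.13 from brain NSC. It was called in neither.

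Among 5 other Bcl2-like genes, Bcl2l10 rose and Bcl2l13 fell in both comparisons of the arrays labelled iPS-derived NSC. That is 40% of the 5 in each, beside 25.3% and 25.4% of all genes called. Bcl2l10, a Bcl2 relative best known from oocytes, read 6.25, 6.55 and 6.40 on the arrays labelled iPS-derived NSC, against 4.37, 4.25 and 4.57 on those labelled iPS and 4.55, 4.63, 4.79 and 3.98 in brain NSC. The differences were 2.01 ± 0.17 and 1.91 ± 0.16, with the 2 lower groups near the lower quartile. Bcl2l13, a mitochondrial protein linked to removal of mitochondria, read 7.55, 7.70 and 7.34 on the arrays labelled iPS-derived NSC, against 9.41, 9.57 and 9.48 on those labelled iPS and 8.84, 9.22, 8.83 and 9.22 in brain NSC. It was lowest on the labelled iPS-derived NSC arrays, with differences of -1.95 ± 0.13 and -1.49 ± 0.12. A second, nearly as bright probe set of Bcl2l13 gave -0.25 and -0.03 and was not called. With the mean of all its probe sets the differences were -1.10, still called, and -0.76, not called. Bcl2l12, Bcl2l14 and Bcl2l15 differed by -0.68 to 0.58 in these comparisons and were not called.

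**Figure D3:**
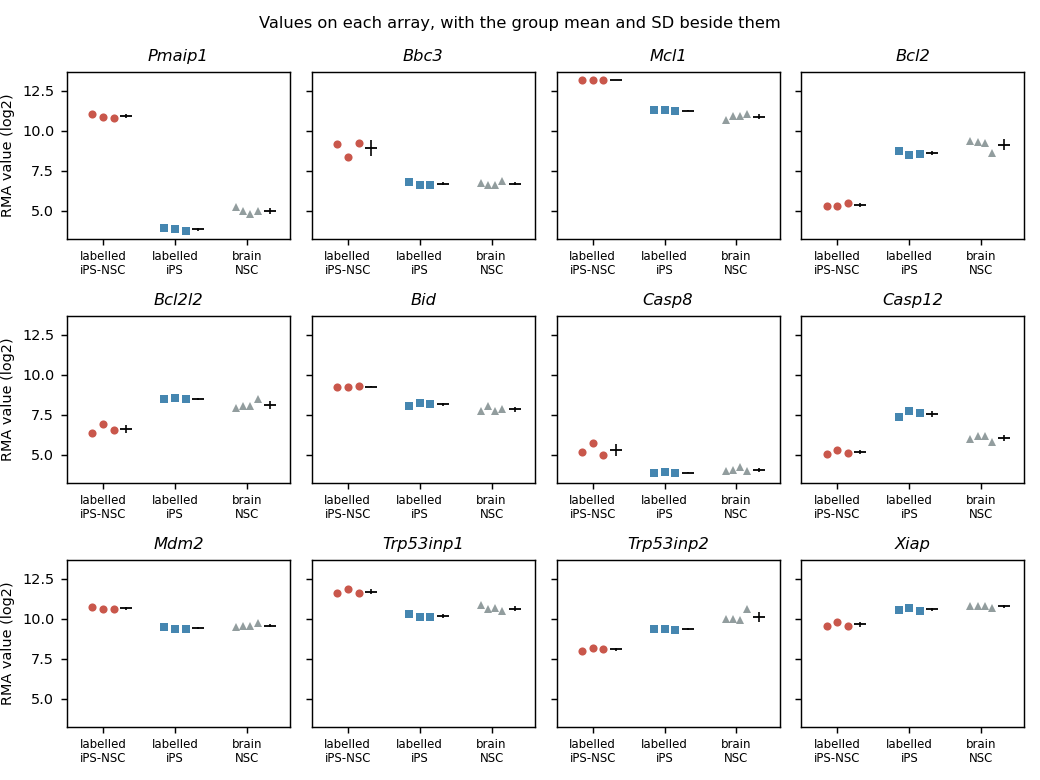
Deposited log2 RMA values (y axis) of 12 of the 47 genes on each array, by group (x axis: labelled iPS-derived NSC, shortened to iPS-NSC, labelled iPS, brain NSC), with the group mean and SD in black. Pmaip1, Bbc3, Mcl1, Bid, Casp8, Mdm2 and Trp53inp1 stand highest in the labelled iPS-derived NSC group, and Bcl2, Bcl2l2, Casp12, Trp53inp2 and Xiap stand lowest there.

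The 6 IAP genes split, with 33.3% called in each comparison of the labelled iPS-derived NSC group, beside 25.3% and 25.4% of all genes. Birc3 and Birc2, which encode ubiquitin ligases of the tumour necrosis factor receptor complex, were higher on the arrays labelled iPS-derived NSC, and Xiap, the direct caspase inhibitor, was lower. Birc3 read 5.44, 5.78 and 5.63 on the arrays labelled iPS-derived NSC, against 4.25, 4.48 and 4.44 on those labelled iPS and 4.28, 4.42, 4.20 and 4.36 in brain NSC. The differences were 1.23 ± 0.11 (adjusted p = 3.26e-07) and 1.30 ± 0.10 (adjusted p = 7.66e-08), all in a dim range, and averaging its 2 probe sets gave 0.79 and 0.78 and ended both calls. Birc2, the neighbour of Birc3 on chromosome 9, differed by 1.03 ± 0.12 from the labelled iPS group and by 0.97 ± 0.11 from brain NSC, so that it was called in the first comparison and not in the second. Leaving out replicate 1 of the labelled iPS-derived NSC group brought the first to 0.97, also not called. The second was called under 6 of 15 alternatives: quantile normalization (1.11), centred arrays (1.07), a test against a minimum of 1.5-fold (0.97), and the fits without replicate 2 of the labelled iPS-derived NSC group (1.01) or without brain NSC replicate 1 (1.01) or 2 (1.02).

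Xiap read 9.56, 9.82 and 9.55 on the arrays labelled iPS-derived NSC, against 10.56, 10.67 and 10.51 on those labelled iPS and 10.82, 10.78, 10.83 and 10.64 in brain NSC. All 3 arrays labelled iPS-derived NSC were the lowest, with a difference of -0.94 ± 0.10 from the labelled iPS group, which was below 2-fold, and of -1.12 ± 0.10 from brain NSC (2.18-fold lower, adjusted p = 1.76e-07), which was called. Its 7 probe sets disagreed in sign in both comparisons, and the difference of their mean from brain NSC was -0.48 and not called. Xiap lies on the X chromosome, where 276 genes with a mean of at least 7 had a median difference of -0.45 from the labelled iPS group and -0.56 from brain NSC. The part of the chromosome in the result was not tested.

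Birc5, the gene of survivin, a protein of dividing cells, read 11.58, 11.55 and 11.54 on the arrays labelled iPS-derived NSC, against 10.72, 10.83 and 10.86 on those labelled iPS and 11.34, 11.28, 11.30 and 10.91 in brain NSC. Values were highest in the labelled iPS-derived NSC group, and brain NSC replicate 4 lay next to the labelled iPS arrays. The differences were 0.75 ± 0.11 (adjusted p = 6.34e-05) and 0.35 ± 0.11 (adjusted p = 0.012), under 2-fold. Birc6, a giant ubiquitin-conjugating IAP, differed by 0.70 and -0.05, and Birc7 by 0.15 and 0.23. Neither was called.

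Of the 5 apoptotic caspases and Apaf1 measured here, Casp8 rose in both comparisons, and Casp2 fell in the one against brain NSC. The shares called were thus 20% and 40%, beside 25.3% and 25.4% of all genes. Casp8, the initiator caspase of death receptors, read 5.19, 5.72 and 4.96 on the arrays labelled iPS-derived NSC, against 3.86, 3.89 and 3.84 on those labelled iPS and 3.98, 4.07, 4.21 and 3.96 in brain NSC. The labelled iPS-derived NSC arrays spread most and did not overlap the others, and all group means lay below the array median. The differences were 1.42 ± 0.15 (adjusted p = 2.28e-06) and 1.23 ± 0.14 (adjusted p = 4.4e-06).

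Casp2, an initiator caspase of the PIDD complex, read 8.10, 7.92 and 7.72 on the arrays labelled iPS-derived NSC, against 8.86, 8.83 and 8.69 on those labelled iPS and 9.01, 9.02, 8.76 and 9.04 in brain NSC. It was lowest on the 3 labelled iPS-derived NSC arrays, with differences of -0.88 ± 0.12 from the labelled iPS group, below 2-fold, and of -1.04 ± 0.11 from brain NSC (2.06-fold lower, adjusted p = 1.41e-06). Without replicate 3 of the labelled iPS-derived NSC group the second was -0.95, just short of the call.

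Apaf1, the core of the apoptosome, read 8.25, 8.02 and 8.14 on the arrays labelled iPS-derived NSC, against 8.63, 8.66 and 8.58 on those labelled iPS and 8.75, 8.75, 8.60 and 8.60 in brain NSC. Its differences of -0.49 ± 0.10 (adjusted p = 0.000536) and -0.54 ± 0.09 (adjusted p = 0.000123) had no overlap between groups and were under 2-fold. Casp9, the initiator caspase that binds Apaf1, read 8.15, 7.89 and 7.86 on the arrays labelled iPS-derived NSC, against 7.70, 7.96 and 7.57 on those labelled iPS and 7.76, 7.62, 7.73 and 7.65 in brain NSC. The labelled iPS-derived NSC and labelled iPS arrays overlapped, with differences of 0.22 ± 0.12 and 0.28 ± 0.11, and a dimmer probe set of Casp9 gave -0.96 and -0.87. Casp6, an executioner caspase, differed by -0.56 ± 0.11 and -0.66 ± 0.10 and was not called.

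The inflammatory caspase genes Casp1, Casp4 and Casp12 neighbour one another on chromosome 9, and Casp12 carried the one call of the 47 that was higher in the labelled iPS group than in brain NSC. Casp12, a caspase tied to endoplasmic reticulum stress and inflammation in mice, read 5.04, 5.30 and 5.13 on the arrays labelled iPS-derived NSC, against 7.35, 7.74 and 7.59 on those labelled iPS and 5.98, 6.17, 6.16 and 5.78 in brain NSC. The 3 groups did not overlap. The labelled iPS group exceeded brain NSC by 1.54 ± 0.12 (2.91-fold, adjusted p = 4.23e-06), and 1.84 on its other probe set, which was also called. Labelled iPS-derived NSC minus labelled iPS was -2.40 ± 0.13 (5.29-fold lower, adjusted p = 1.58e-09). Labelled iPS-derived NSC minus brain NSC was -0.87 ± 0.12, below 2-fold, and -1.42 on the other probe set, which was called.

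Casp1, the caspase that processes interleukin-1β, was dim in all groups and differed by 0.95 ± 0.11 for labelled iPS minus brain NSC (adjusted p = 7.71e-05) and by -0.71 ± 0.12 for labelled iPS-derived NSC minus labelled iPS, in the directions of Casp12. For labelled iPS-derived NSC minus brain NSC it differed by 0.23 ± 0.11 (adjusted p = 0.0744), where Casp12 had the opposite sign. None of the 3 reached 2-fold, and the first was 1.07, and called, without labelled iPS replicate 1. Casp4 differed by at most 0.16 in size in the 3 comparisons, with overlapping arrays in each. Casp14, a caspase of skin, differed by 0.04 and 0.20.

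The p53 relatives and the Mdm genes gave 1 call, Mdm2, the ubiquitin ligase that degrades p53 and is itself a p53 target. That is 25% of the 4 genes in each comparison of the labelled iPS-derived NSC group, near the 25.3% and 25.4% of all genes. Mdm2 read 10.72, 10.59 and 10.62 on the arrays labelled iPS-derived NSC, against 9.49, 9.38 and 9.37 on those labelled iPS and 9.52, 9.53, 9.55 and 9.72 in brain NSC. Arrays labelled iPS-derived NSC were the highest and did not overlap the others, by 1.23 ± 0.09 (2.35-fold, adjusted p = 5.33e-08) and 1.07 ± 0.09 (2.09-fold, adjusted p = 1.06e-07). The second of these became 0.93 with the mean of its 3 probe sets, below the call.

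The promoter of Mdm2 is shown because it is the one, among the called genes with a window, that held a match to the p53 decamer, the unit of which a pair makes up a p53 response element. It covers the 250 bases before the start at chr10:117710759-117711008, minus strand, RefSeq, GRCm38.p6, read 5′ to 3′. Capitals mark GGGCGG or its reverse complement and the decamer match GAACTTGCCT.
Mdm2: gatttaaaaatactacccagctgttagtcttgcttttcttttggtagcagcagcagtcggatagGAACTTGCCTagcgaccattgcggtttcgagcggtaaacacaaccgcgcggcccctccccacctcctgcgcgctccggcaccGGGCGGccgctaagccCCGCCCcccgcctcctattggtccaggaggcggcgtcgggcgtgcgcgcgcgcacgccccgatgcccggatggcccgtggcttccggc
The decamer match lies 186 to 177 bases before the start and overlaps neither of the 2 GC boxes. The window also held a CCAAT box. A p53 decamer on either strand was present in 3 of the 57 windows (5.26%, in Mdm2, Birc5 and Bmf) and in 7.13% of all windows. The called genes Pmaip1, Trp53inp1 and Bcl2l10 were not searched here. Other windows without those letters say nothing of p53 binding elsewhere.

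Mdm4, the partner of Mdm2 that masks the activation domain of p53, read 8.30, 8.24 and 8.01 on the arrays labelled iPS-derived NSC, against 8.38, 8.28 and 8.20 on those labelled iPS and 8.54, 8.69, 8.38 and 8.56 in brain NSC. Arrays of the labelled iPS-derived NSC and labelled iPS groups overlapped, and the differences were -0.10 ± 0.11 and -0.36 ± 0.10. This direction depended on the probe set. Without probe sets that can cross-hybridise, Mdm4 differed by 1.11 from the labelled iPS group, which was called, and by 0.59 from brain NSC. These are values of the brightest probe set left, and the others gave 0.54 and 0.42 from the labelled iPS group, neither called. The mean of all its probe sets gave 0.49 there, also not called. The first difference was also above 0 with quantile normalization (0.15) and with centred arrays (0.01), and was called with neither. Trp63 and Trp73, the p53 relatives of epithelia and neural development, stayed below the array median in every group. They differed by 0.29 and 0.35 from the labelled iPS group and by 0.18 and 0.49 from brain NSC.

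Among 9 genes named for p53 binding, induction or phosphorylation, Trp53inp1 rose, and Trp53i11 and Trp53inp2 fell in both comparisons of the arrays labelled iPS-derived NSC. That is 33.3% of the 9 in each, beside 25.3% and 25.4% of all genes called. Trp53inp1, a p53-induced nuclear protein of stress responses, read 11.61, 11.86 and 11.64 on the arrays labelled iPS-derived NSC, against 10.29, 10.10 and 10.09 on those labelled iPS and 10.86, 10.60, 10.64 and 10.46 in brain NSC. The 3 groups did not overlap, and the differences were 1.55 ± 0.12 (2.92-fold, adjusted p = 5.48e-08) and 1.06 ± 0.11 (2.09-fold, adjusted p = 1.21e-06). The second was 0.99, and not called, without replicate 2 of the labelled iPS-derived NSC group.

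Trp53inp2, which acts in autophagy and in transcription by nuclear receptors, read 7.99, 8.16 and 8.14 on the arrays labelled iPS-derived NSC, against 9.38, 9.39 and 9.30 on those labelled iPS and 9.99, 9.98, 9.89 and 10.60 in brain NSC. The groups did not overlap, and brain NSC replicate 4 was the highest array. The differences were -1.27 ± 0.15 (2.40-fold lower) and -2.02 ± 0.14 (4.06-fold lower), and with the mean of its 2 probe sets the first became -0.74 and was not called, and the second became -1.07 and was called. Trp53i11, a p53-induced gene, read 7.89, 7.71 and 7.53 on the arrays labelled iPS-derived NSC, against 10.48, 10.61 and 10.52 on those labelled iPS and 9.32, 9.30, 9.39 and 10.60 in brain NSC. Again the labelled iPS-derived NSC arrays were lowest, and brain NSC replicate 4 lay among the labelled iPS arrays. The differences were -2.83 ± 0.27 (7.11-fold lower, adjusted p = 5.32e-07) and -1.95 ± 0.25 (3.85-fold lower, adjusted p = 1.09e-05), and the labelled iPS minus brain NSC difference was 0.88 ± 0.25, or 1.20 and called without replicate 4.

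The remaining 6 were not called. Trp53bp1, a DNA repair protein that binds p53, differed by 0.09 ± 0.21 and -0.61 ± 0.19, with brain NSC replicate 4 again apart from the other 3 brain arrays. Trp53bp2, a p53 cofactor of the ASPP family, Trp53i13 and Trp53rka differed by -0.16 to 0.32 in these 2 comparisons, and Trp53tg5 by 0.10 in both. Trp53rkb, a kinase gene with a near-identical copy in Trp53rka, differed by 0.76 ± 0.14 and 0.85 ± 0.13. One probe set that the annotation gives to both kinase genes averaged 8.05 in the labelled iPS-derived NSC group, against 7.45 in the labelled iPS group and 7.35 in brain NSC, so the split between these copies is uncertain. The 3 probe sets shared by Bcl2a1 genes, which therefore are not among the 47, had group means of 3.26 to 5.02.

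**Figure D4:**
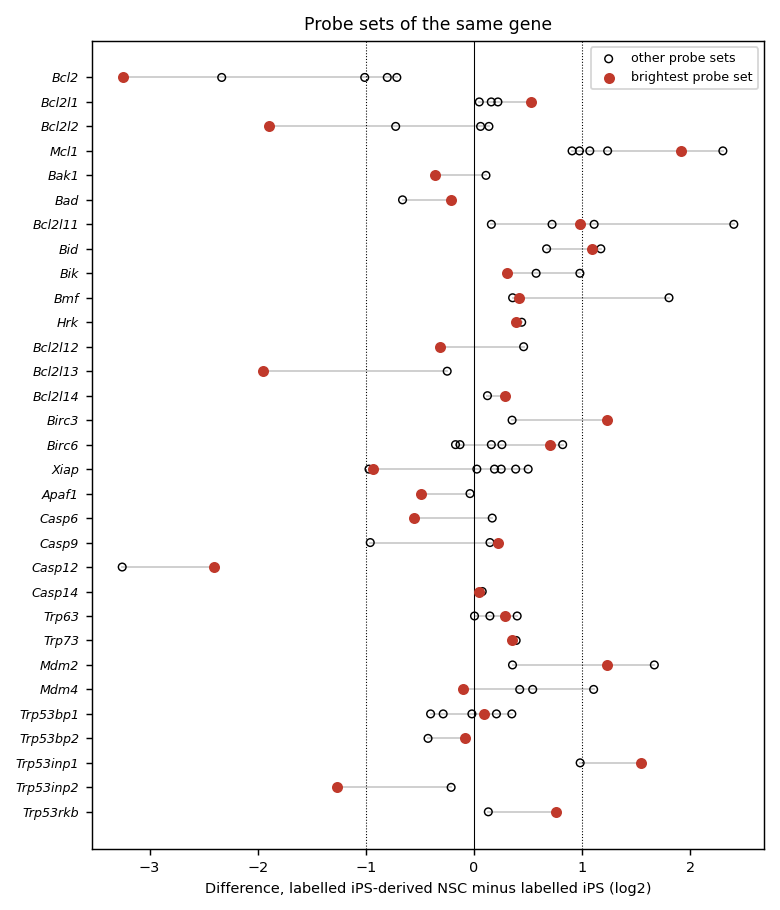
Differences of labelled iPS-derived NSC minus labelled iPS (x axis, log2) for every probe set of the 31 genes with more than 1 (rows). Filled red points are the brightest probe set, open points the others and dotted lines a 2-fold difference. Bcl2 runs from -3.25 to -0.71, Mcl1 from 0.91 to 2.30 and Bcl2l2 on both sides of 0.

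The 47 genes have 114 probe sets, and 16 genes have 1. Of the 16 genes called between the labelled iPS-derived NSC and labelled iPS groups, 10 have more than 1 probe set: 9 had the same sign on every one, and Casp12 was called on every one. The exception in sign was Bcl2l2. In the comparison with brain NSC, 10 of the 16 have more than 1, 8 had the same sign on every one, and the exceptions were Bcl2l2 and Xiap. Genes not called on the brightest probe set but called on another were Bcl2l11, Bmf and Mdm4 in the first comparison and Bcl2l11, Bik, Birc6, Bmf and Casp12 in the second.

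Brain NSC replicate 4 stood apart from the other 3 brain arrays for several of these genes. It lay within or next to the labelled iPS arrays for Trp53i11, Bcl2l11, Bak1, Trp53bp1, Birc5 and Bcl2, and beyond all others for Trp53inp2, a set picked after these values were seen. Without it, 4 of the 47 genes were called between the labelled iPS group and brain NSC, in place of 2, and 537 of all genes in place of 335.

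**Figure D5:**
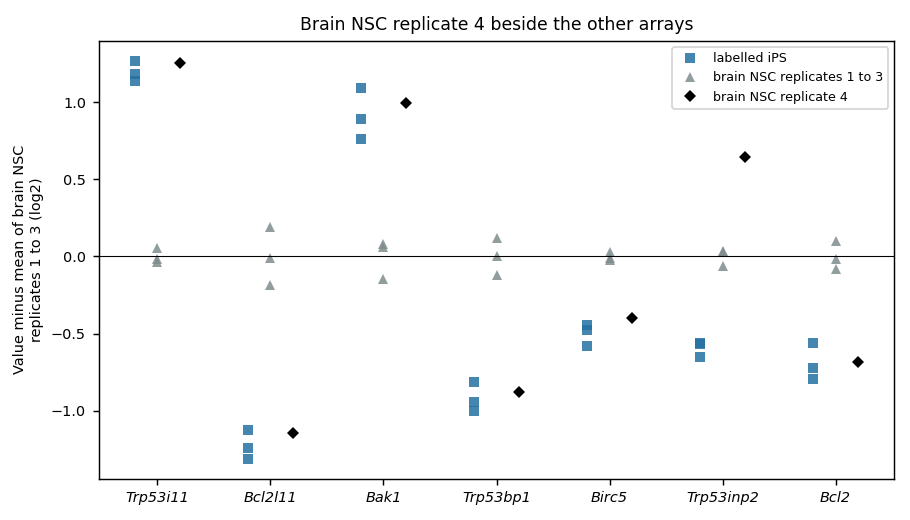
Values of 7 genes on the labelled iPS arrays (squares), brain NSC replicates 1 to 3 (triangles) and brain NSC replicate 4 (diamonds), each minus the mean of brain NSC replicates 1 to 3 (y axis, log2). Replicate 4 lies with the labelled iPS arrays for Trp53i11, where it read 10.60 against 10.48 to 10.61 there, and away from them for Trp53inp2.

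Upstream of p53, 21 regulators that are not among the 47 were examined, of which 2 were higher and 3 lower in both comparisons of the labelled iPS-derived NSC group, and 16 were not called. The 5 called are 23.8% of the 21, near the 25.3% and 25.4% of all genes. Sirt1, a deacetylase of p53, averaged 10.89 in the labelled iPS-derived NSC group, 8.89 in the labelled iPS group and 8.57 in brain NSC (3.996-fold and 5.01-fold higher), and Ppp1r13b, a p53 cofactor of the ASPP family, was higher by 2.78 ± 0.17 and 2.91 ± 0.15. Hipk2, a kinase that phosphorylates p53, averaged 4.44 in the labelled iPS-derived NSC group, 9.81 in the labelled iPS group and 10.28 in brain NSC, with differences of -5.37 ± 0.11 and -5.84 ± 0.11. Twist1, a transcription factor reported to restrain p53, was lower, at -3.54 ± 0.18 and -2.10 ± 0.17, and was the 1 of the 21 called between the labelled iPS group and brain NSC, at 1.45 ± 0.17. The median difference of the 21 was 0.41 and 0.17, beside 0.12 and 0.13 over all genes.

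Of 26 textbook p53 targets that are not among the 47, 7 were higher and 3 lower than in the labelled iPS group, and 8 were higher and 4 lower than in brain NSC, with medians of 0.36 and 0.44. The called genes are 38.5% and 46.2% of the 26, beside 25.3% and 25.4% of all genes, and the medians over all genes were 0.12 and 0.13. Perp, a desmosomal and apoptotic target, was higher by 3.44 ± 0.13 and 3.17 ± 0.12, and Sfn, the epithelial checkpoint protein 14-3-3σ, by 3.07 ± 0.15 and 2.96 ± 0.14. Aen, an apoptotic nuclease, was higher by 1.36 ± 0.11 and 1.46 ± 0.11. The death receptor gene Fas was lower, at -1.36 ± 0.16 and -1.58 ± 0.15, and so was Rrm2b, a ribonucleotide reductase subunit, at -1.54 ± 0.12 and -1.64 ± 0.11. The targets thus went both ways. Cdkn1a, the cell cycle inhibitor p21, was not called, at -0.65 ± 0.20 and -0.69 ± 0.18, and none of the 26 was called between the labelled iPS group and brain NSC, where 11 had an unadjusted and 8 an adjusted p under 0.05 in limma, beside an adjusted p under 0.05 for 3704 of all 18193 genes.

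Of 15 death receptor and adaptor genes, 2 were higher and 3 lower in both comparisons of the arrays labelled iPS-derived NSC. This is 33.3% of the 15, beside 25.3% and 25.4% of all genes. Pycard, the inflammasome adaptor, averaged 10.72 in the labelled iPS-derived NSC group, against 4.27 in the labelled iPS group and 4.47 in brain NSC, and was higher by 6.46 ± 0.11 and 6.25 ± 0.10. Ripk3, the kinase of necroptosis, was higher by 1.94 ± 0.21 and 2.03 ± 0.20. The receptors Tnfrsf21 (-2.91 ± 0.16 and -3.87 ± 0.15) and Tnfrsf1a (-1.91 ± 0.15 and -1.67 ± 0.14) were lower, as was Cflar, the inhibitor of Casp8, at -1.56 ± 0.15 and -1.11 ± 0.14. The median difference of the 15 was -0.10 and -0.07, beside 0.12 and 0.13 over all genes.

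Of 19 mitochondrial and nuclease effectors, 3 were higher and 3 lower than in the labelled iPS group, and 2 were higher and 3 lower than in brain NSC. The shares called were 31.6% and 26.3%, beside 25.3% and 25.4% of all genes, so the second was near that of all genes. The mitochondrial nuclease gene Endog was higher by 1.37 ± 0.15 and 1.38 ± 0.14, and Dffa, the chaperone and inhibitor of the apoptotic DNase, by 1.20 ± 0.09 and 1.05 ± 0.09. Bnip2, a Bcl2-interacting protein, was lower, at -2.48 ± 0.09 and -2.51 ± 0.08, as was Tmbim6, a suppressor of Bax-driven death, at -1.31 ± 0.13 and -1.39 ± 0.12. The median difference of the 19 was 0.02 and -0.03. None of these 19 or of the 15 receptor and adaptor genes was called between the labelled iPS group and brain NSC. There 5 of the 19 and 4 of the 15 had an unadjusted p under 0.05 in limma. An adjusted p under 0.05 was met by 2 of the 19 and 4 of the 15, beside 3704 of all 18193 genes.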

How the data were processed

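RNA of 10 samples was measured on Affymetrix arrays, 1 sample per array, and the authors deposited 1 table that gives a log2 expression value for each probe set and array. The values were made with RMA, per the submitters' processing notes. The sources used here do not give the version. The method subtracts background, equalises the distributions of the arrays and summarises each probe set on the log2 scale, so shifts shared by most genes are largely removed and differences of dim genes are compressed. No scanner file was used, and other background corrections were not tried. The precision is limited by the number of arrays.

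There were 45101 probe sets: 64 controls, 34945 with 1 gene symbol in the platform annotation, 932 with several and 9160 with none. Of the 18193 genes, 18032 were found in RefSeq by Entrez identifier, which changed 0 symbols. Groups came from the sample titles. Differences were fitted with limma 3.58.1 (lmFit and eBayes) in R 4.3.3 on all 10 arrays in 3 groups, with 7 residual and 5.95 prior degrees of freedom, two-sided p values and Benjamini-Hochberg adjustment over all genes. Probe sets of the 47 genes were tested in the same way, with adjustment over all probe sets other than controls. The fit was tested on simulated data. Promoter windows and builds are those of RefSeq. Figures used matplotlib 3.10.9 with numpy 2.4.6, and tables pandas 2.3.3, under Python 3.11.15.

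The genes, lists and tests were chosen with earlier results of these data known. Values on every array are given for a core set (Mdm2, Mdm4, Bcl2, Bcl2l1, Mcl1, Bak1, Bcl2l11, Bbc3, Pmaip1, Casp8, Casp9, Apaf1, Xiap and Birc5) and, per comparison, for up to 8 called genes with the largest rise and 8 with the largest fall. Of the other pathway lists, up to 3 called rises and falls per list and comparison could be named; Cdkn1a was named after its value was seen. The alternatives were other probe set choices, a filter on dim genes, quantile normalization, centring, fits of 2 groups, a minimum of 1.5-fold, a replicate block and leaving out each array.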

Additional observations from a re-analysis of the deposited data

Results flagged for a closer look

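In brain NSC, the one group with 4 arrays, 4 of the 47 genes had a value so far from the other 3 that the gap exceeded Dixon's critical value. Chance gives about 5% of such groups, and here 8.51% of the 47 genes and 1311 of 18193 genes (7.21%) met it. Replicate 4 was the array that stood apart for 3 of the 4 and for 767 of the 1311, against 169, 235 and 140 for replicates 1, 2 and 3. Trp53i11 read 10.60 on replicate 4, against 9.31 to 9.39 on the others, and Trp53inp2 read 10.60, against 9.89 to 9.99. Birc5 read 10.91 on replicate 4, against 11.28 to 11.34. Casp2 read 8.77 on replicate 3, against 9.01 to 9.04. The cause was not tested.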

How the results depend on the processing

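Of the 47 genes, 16 were called between the labelled iPS-derived NSC and labelled iPS groups. The other settings that kept all 47 gave 13 to 18, and leaving out 1 array gave 16 to 17. Against brain NSC the corresponding ranges were 11 to 17 and 15 to 17. The lowest counts, 13 and 11, came with the mean of all probe sets, beside 3834 and 3888 of 18193 genes. In the main setting these were 4598 and 4618. With a minimum of 1.5-fold, 18 and 17 of the 47 were called, beside 5075 and 5236 of all genes. With dim genes left out, 11 and 12 of the 30 remaining were called in these comparisons, beside 3297 and 3299 of 9192 genes. Over all genes, leaving out 1 array gave 4586 to 4644 calls in the first comparison and 4575 to 4702 in the second. Between the labelled iPS group and brain NSC, 335 genes were called, with 223 for the mean of all probe sets, 183 for a minimum of 1.5-fold, and 296 to 537 with 1 array left out, the highest without brain NSC replicate 4. Of the 47, 2 were called there in the main setting and 2 to 4 with 1 array left out. Without replicate 4 these also held Bcl2l11 at -1.23 and Trp53i11 at 1.20. With dim genes left out, which removes both Pmaip1 and Casp12, 0 of 30 were called by limma, beside 224 of 9192 genes. Of those 30, 17 had an unadjusted and 14 an adjusted p under 0.05 in limma. Neither of these counts was taken over all genes at that setting, so no share stands beside them. With a replicate block, 537 genes and 4 of the 47 were called, since the block gives brain NSC replicate 4 a level of its own; it moved no other count by over 1.5 times. Nothing in the labels says that the replicate numbers pair samples. Correlations of same-numbered deviations were -0.23 to 0.13, and those of differently numbered ones -0.31 to 0.27. With 3 or 4 arrays per group these cannot decide whether the samples are paired. Of the 141 differences (47 genes in 3 comparisons), 32 changed sign under at least 1 alternative, and none of these was called in the main setting. For 23 of the 32 the main value was under 0.1 in size, and 1 was called once turned: Mdm4 for labelled iPS-derived NSC minus labelled iPS, at 1.11 without probe sets prone to cross-hybridisation. Centring the arrays moved the median difference of all genes by 0.11 and 0.10 in the comparisons of the labelled iPS-derived NSC group, and no called gene of the 47 changed direction with it or with quantile normalization. Among called genes, Casp2 against brain NSC was lost with both scalings (-0.94 centred, -0.84 quantile). The signal over background of dim genes such as Casp8 and Birc3 was not measured, and the number of arrays limits the precision.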
